A study of Mus musculus with 14 samples.

Results

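The 7 genes described here, Pth, Nts, Ecm1, Ctsh, Rnf128, Epas1 and Gpm6b, encode 3 secreted proteins, 2 endosomal or lysosomal proteins, a transcription factor and a membrane glycoprotein. They were chosen because all their probe sets stood far higher in Th2 than in Th1 cells in every matched pair of arrays, and all 12 probe sets listed with 1 of these genes are given. The array lists 18194 genes in all, of which 13118 passed a filter on low signals. Total RNA was taken from mouse T cells polarised in culture for 2 weeks and hybridised to 14 Affymetrix arrays, 1 for each of 7 conditions in Th2 and in Th1 cells. The study asked how gene expression changes when the ion channel Trpm4 is inhibited in these cells. The conditions were Trpm4 siRNA, set against Thy1 siRNA, and a retrovirus carrying dominant negative (DN) Trpm4, set against the vector only, at 4 h and at 12 h of stimulation, besides cells with no treatment label. The labels name no mouse strain, no stimulus and no source culture, and each condition has 1 array, so pairs of arrays across conditions stand in for replicates and the spread between them may be technical.

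Helper T cells that meet interleukin 4 become Th2 cells, which use the factor Gata3 and secrete interleukins 4, 5 and 13, whereas Th1 cells use Tbx21 and secrete interferon gamma. Trpm4 is a calcium-activated cation channel that lets sodium into the cell and so lowers the driving force for calcium entry. Parathyroid hormone and neurotensin are peptide hormones, cut from longer precursors in the secretory pathway, and are known from the parathyroid gland and from brain and gut. Ecm1 is known in mouse Th2 cells for their exit from lymph nodes, and Rnf128, also called GRAIL, for T cell anergy.

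Values are deposited probe set signals on a linear scale, and differences are on the log2 scale of quantile-normalised signal plus 16. On that scale the floor is 4.0 and the median probe set lies at 5.39. The arrays fell into 2 kinds by the controls that read both ends of a transcript. On 6 arrays, the Th2 retrovirus arrays at 4 h and 12 h and the Th1 retrovirus arrays at 4 h, Gapdh read higher at its 3′ than at its 5′ end, by 5.22 to 5.72 in log2. On the other 8, the Th1 retrovirus arrays at 12 h among them, that difference was -0.25 to 0.04. The kind of array therefore cannot be told apart from 3 comparisons below: Th2 with Th1 at 12 h, 12 h with 4 h in Th1, and retrovirus with the other arrays in Th2. In Th2 cells, 12 h against 4 h was read within 1 kind. The deposited Trpm4 signal was 84.5 with Trpm4 siRNA and 133 with Thy1 siRNA in Th2 cells, and 58.4 and 100.3 in Th1 cells. With DN Trpm4 the same probe set had 128 at 4 h and 129 at 12 h in Th2 cells, against 117 and 135 with the vector, and 119 and 516 in Th1 cells, against 70.5 and 75.3. Whether it also reads the introduced gene is not stated. The Th2 and Th1 labels held in their markers: 7 of 7 Th2 markers tested were higher in Th2 arrays and 3 of 7 Th1 markers were lower. These were Ifng, Il18r1 and Il12rb2, while Tbx21 differed by -0.39 ± 0.40 (SE; adjusted p = 0.553 in limma).

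All 12 probe sets read higher in Th2 than in Th1 in all 7 pairs, which 8.12% of the 29467 probe sets tested did. None had an overlap between its Th2 and Th1 signals, against 1.49% of probe sets with all Th2 arrays above all Th1 arrays. In the limma test 9.79% of all probe sets were called, 6.14% higher and 3.65% lower in Th2. The genes were chosen by these Th2 and Th1 signals, so the levels in this and the next 4 paragraphs are a description with no test. All 12 passed the filter, with all 7 Th2 arrays above the median. In bulk RNA, fewer cells that make a transcript and less of it per cell cannot be told apart.

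**Figure D1:**
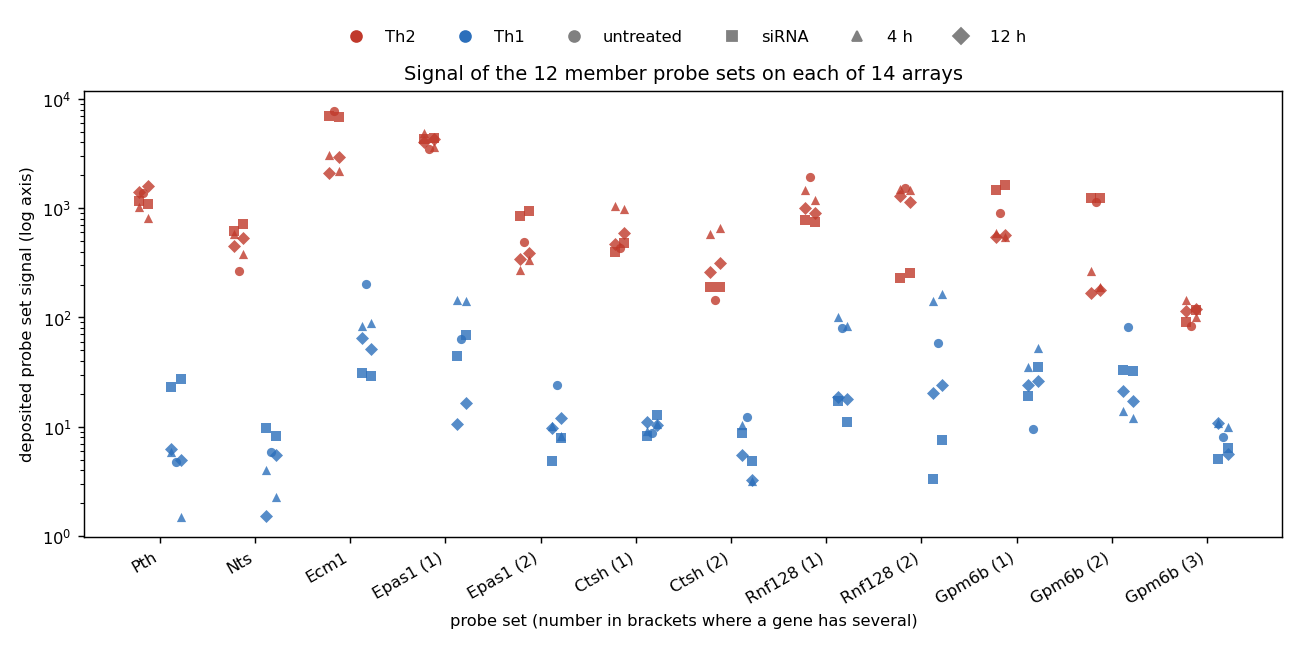
Deposited signal (log axis) of the 12 probe sets of the 7 genes on each of 14 arrays, with Th2 arrays in red and Th1 arrays in blue and the marker shape giving the set of arrays. No Th1 point reaches the lowest Th2 point of the same probe set: for Pth the Th2 arrays lie between 807 and 1588 and the Th1 arrays between 1.49 and 27.4.

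The first group is that of the secreted proteins. Pth, the gene of parathyroid hormone, which raises blood calcium through its receptor in bone and kidney, had a lowest signal of 807, a median of 1156 and a highest of 1588 in the 7 Th2 arrays, against 1.49, 5.81 and 27.4 in the 7 Th1 arrays. The Th1 signals were low everywhere, and the 2 siRNA arrays were the highest of them. Th2 exceeded Th1 by 5.58 ± 0.83 (SD, n = 7 pairs). With 1 of 7 Th1 arrays above the median, the size of this difference is set by the added 16, and it ran from 4.10 to 7.09 over the alternatives. Nts, the gene of the precursor of neurotensin and neuromedin N, read 267, 529 and 721 in Th2 arrays, against 1.53, 5.46 and 9.71 in Th1 arrays. Its difference was 4.52 ± 0.42, and with 0 of 7 Th1 arrays above the median it ran from 2.96 to 6.35 over the alternatives. Ecm1, the gene of extracellular matrix protein 1, a secreted glycoprotein, read 2101, 3099 and 7785 in Th2 arrays, against 29.3, 64.2 and 203 in Th1 arrays. Its difference was 5.59 ± 0.90. Ecm1 signal was thus not at the floor in Th1 cells: its highest Th1 value, on the untreated array, lay at 8.12 in log2, well above the median probe set.

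In the GRCm38.p6 build, the start regions of these 3 genes are shown because all 3 encode secreted proteins and because Gata3 was higher in the Th2 arrays by 2.92 ± 0.12 (SE; adjusted p = 2.16e-06 in limma). Pth lies on chromosome 7, Nts on chromosome 10 and Ecm1 on chromosome 3, all on the minus strand. The windows run from 250 bases before to 50 bases after the RefSeq start used, at chr7:113388524-113388823, chr10:102490369-102490668 and chr3:95739520-95739819. For Nts that start is the outer end of the listed gene. For Pth and Ecm1 it lies inside the listed gene, which reaches 113388672 and 95739876, and the Ecm1 window lies wholly inside its gene. Each window is written 5′ to 3′ on the strand of the gene, from RefSeq, with the matches to a GATA word in capitals. The words searched on both strands were AGATAA or AGATAG or TGATAA or TGATAG.
Pth: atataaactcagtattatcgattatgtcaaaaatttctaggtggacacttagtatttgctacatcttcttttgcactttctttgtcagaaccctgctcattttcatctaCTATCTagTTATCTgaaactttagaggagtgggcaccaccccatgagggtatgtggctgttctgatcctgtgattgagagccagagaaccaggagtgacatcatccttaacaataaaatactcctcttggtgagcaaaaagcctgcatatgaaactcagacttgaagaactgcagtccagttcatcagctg
Nts: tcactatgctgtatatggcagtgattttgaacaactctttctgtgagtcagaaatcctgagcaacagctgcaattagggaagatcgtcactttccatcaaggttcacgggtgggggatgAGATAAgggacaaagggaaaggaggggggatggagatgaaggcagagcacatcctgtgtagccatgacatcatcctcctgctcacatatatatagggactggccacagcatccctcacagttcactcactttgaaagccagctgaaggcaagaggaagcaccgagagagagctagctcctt
Ecm1: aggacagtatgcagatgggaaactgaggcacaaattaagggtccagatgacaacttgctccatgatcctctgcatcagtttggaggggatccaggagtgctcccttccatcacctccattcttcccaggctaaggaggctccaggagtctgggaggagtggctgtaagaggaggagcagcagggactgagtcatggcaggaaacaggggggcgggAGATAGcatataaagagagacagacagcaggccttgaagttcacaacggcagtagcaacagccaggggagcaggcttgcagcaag
The Pth window held 2 matches on the opposite strand, 141 and 133 bases before the start used. The Nts window held 1 match 131 bases before the start used and the Ecm1 window 1 match 35 bases before it. Of 32851 promoters of the same length, 29.8% held such a word. The windows of Rnf128 and Gpm6b, the other members matched (5 of 7 in all), held none. That of Rnf128, at chrX:139610370-139610669, lies inside the listed gene, which begins at 139563340. Other words were searched too: a STAT motif was in none of the 5 windows (6.95% of promoters), TGGAAA, as NFAT factors read, was in those of Nts and Gpm6b (21.4%), and ACGTG or GCGTG, as HIF factors read, was in that of Gpm6b (43.8%). A match describes the letters and is not a binding site.

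The endosomal and lysosomal proteins form the second group. Ctsh encodes cathepsin H, a lysosomal cysteine protease that trims the amino end of peptides. Its probe set 1418365_at read 401, 483 and 1048 as lowest, median and highest in Th2 arrays, against 8.26, 10.4 and 12.8 in Th1 arrays. The other, 1443814_x_at, of a class whose probes may also match related transcripts, read 143, 258 and 659.5 in Th2 arrays, against 3.20, 5.56 and 12.2 in Th1 arrays. Both Th1 series stayed below the median of the arrays throughout, so Th1 cells gave no Ctsh signal that could be ordered. Rnf128 encodes a ubiquitin ligase that sits in endosomal membranes. Its probe set 1418318_at read 755, 1013 and 1949 in Th2 arrays, against 11.01, 18.8 and 100.2 in Th1 arrays, and 1449036_at read 228, 1307 and 1528, against 3.35, 24.3 and 166. Unlike Ctsh, Rnf128 varied widely between Th1 arrays, by 2.23 and 3.14 in log2 between the lowest and the highest.

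The nuclear factor and the membrane protein complete the set. Epas1 encodes HIF-2α, the oxygen-regulated partner of Arnt that switches on hypoxia genes. Its probe set 1435436_at read 3517, 4276 and 4859.7 in Th2 arrays, against 10.6, 63.0 and 143 in Th1 arrays, a difference of 5.93 ± 1.09 (SD, n = 7 pairs). From the lowest to the highest array it ranged over 0.75 in log2 in Th2 and over 2.46 in Th1. Gpm6b encodes a proteolipid family glycoprotein known from neurons and oligodendrocytes. Its 3 probe sets differed by 4.21 ± 0.75 (1423091_a_at), 3.22 ± 0.84 (1425942_a_at) and 2.31 ± 0.23 (1453514_at). The first of these read 548, 594 and 1616 in Th2 arrays, against 9.52, 26.2 and 52.8 in Th1 arrays. The second read 168, 266 and 1247, against 12.1, 21.4 and 82.2. The last read 84.2, 116 and 144 in Th2 arrays, against 5.07, 8 and 10.8 in Th1 arrays.

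Pairs differed in how far apart the cell types stood. For Epas1 1435436_at Th2 exceeded Th1 by 7.32 and 7.66 in the 2 pairs at 12 h and by 5.01 to 5.71 in the other 5. The other Epas1 probe set, 1449888_at, did not show this: its 3.85 and 3.89 at 12 h lay within the 3.33 to 5.14 of the other 5. Its Th1 signals, 8.15 and 10.1 at 4 h and 9.79 and 12.1 at 12 h, were below the array median of 25.9. A lower Th1 level at 12 h could therefore not be read from it. At 12 h the Th1 arrays were of the unbiased kind and the Th2 arrays of the biased kind, and in each of the other pairs both arrays were of 1 kind. Without the 12 h pairs the difference of 1435436_at was 5.30.

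Across the Th2 conditions the 7 genes did not move as one. Ecm1 read 2101 to 3099 on the 4 retrovirus arrays, against 6825 with Trpm4 siRNA, 6941 with Thy1 siRNA and 7785 untreated. The retrovirus arrays were all lower and did not overlap with the others. Ctsh 1418365_at ran the other way after normalisation. As deposited it read 467 and 591 at 12 h, 976 and 1048 at 4 h, 401 and 483 with siRNA and 430.5 untreated. The 467 with vector at 12 h thus lay below the 483 with Trpm4 siRNA, while their normalised signals were 525 and 404. Gpm6b 1425942_a_at was the member most apart, at 168 to 266 with retrovirus, against 1234 to 1247 with siRNA and 1140.1 untreated. After normalisation its siRNA arrays lay below the untreated array, at a mean of 9.96 against 10.36 in log2. Epas1 depended on the probe set: 1435436_at was higher on the retrovirus arrays by 0.57 in mean log2, 1449888_at lower by 0.97, and over the 7 Th2 arrays they correlated at r = -0.93. Neither rise nor fall of Epas1 between these sets can therefore be stated for the gene.

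In all, 7 of the 12 probe sets had retrovirus arrays that did not overlap with the other Th2 arrays in normalised signal, 3 above and 4 below. Of all probe sets tested, 49.9% had such a gap, 26.3% above and 23.6% below, so the members' share is near the background. The 3′ bias differs between the same arrays and cannot be told apart from the retrovirus. Of the 3 above, Ctsh 1418365_at and Epas1 1435436_at did overlap in deposited signal. For Epas1 1435436_at it was 3617 with DN Trpm4 at 4 h and 4352 with Trpm4 siRNA. Over the 7 Th2 arrays the probe sets of Ctsh correlated at r = 0.96, although siRNA lay at -0.31 relative to untreated in 1418365_at and at 0.21 in 1443814_x_at, and those of Rnf128 at r = 0.90, whereas Gpm6b 1453514_at, flat across the sets, correlated at -0.31 and -0.34 with the other probe sets of the gene.

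Within the unbiased kind, untreated and siRNA arrays could be set side by side, with no test because each cell type has 1 untreated array. Rnf128 1449036_at read 228 and 253 with Thy1 siRNA and Trpm4 siRNA in Th2 cells, against 1528 untreated, and 3.35 and 7.52 in Th1 cells, against 57.9 untreated. On the log2 scale the siRNA mean lay at -2.85 relative to the untreated array in Th2 and at -2.18 in Th1. For its other probe set the values were -1.79 and -2.08. Both probe sets in both cell types were thus lower with siRNA, whichever gene the siRNA was aimed at. Ecm1 with siRNA lay at -0.62 relative to untreated in Th2 and at -2.56 in Th1, where it read 30.8 and 29.3 against 203 untreated. Pth read 1156 and 1083 with siRNA in Th2 cells, against 1392 untreated, and 23.0 and 27.4 in Th1 cells, against 4.79 untreated. Nts was highest with siRNA in Th2 cells, at 620 and 721, against 267 untreated. The labels do not say whether untreated and siRNA cells were cultured together.

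**Figure D2:**
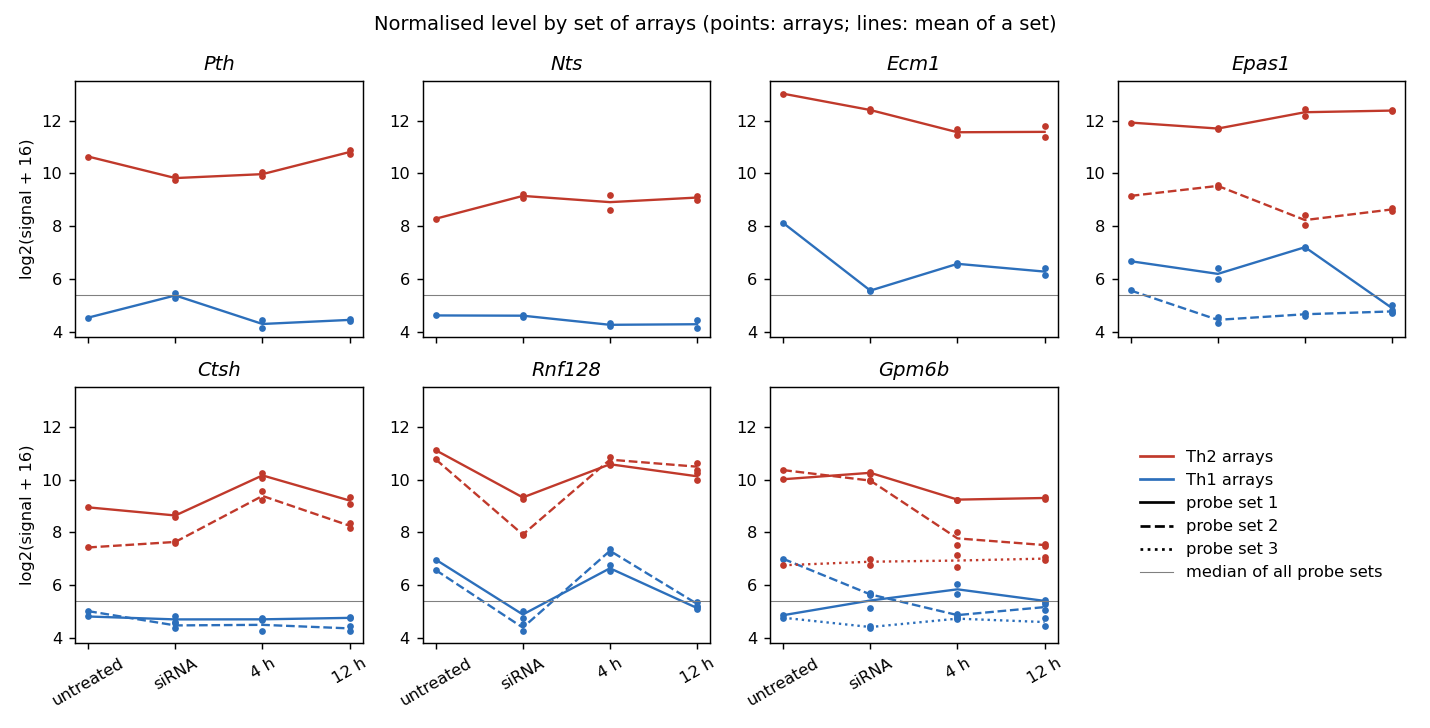
Normalised level, log2(signal + 16), of each probe set of the 7 genes by set of arrays, with Th2 in red and Th1 in blue. Points are arrays, lines join the means of the sets and only guide the eye, line styles are probe sets in order of mean level, and the grey line is the median probe set at 5.39. In Th2 cells Ecm1 and Gpm6b 1425942_a_at read lower on the retrovirus arrays than on the siRNA arrays, and both Rnf128 probe sets read lower with siRNA than untreated in both cell types.

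Duration of stimulation was compared at 12 h against 4 h, in the vector pair and in the DN Trpm4 pair of each cell type, by limma over 8 arrays with 2 residual degrees of freedom. In Th2 cells Ctsh fell and Pth rose. Ctsh 1418365_at read 467 and 591 at 12 h, with vector and DN Trpm4, against 1048 and 976 at 4 h. The arrays at the 2 times did not overlap, and the fall was -0.95 ± 0.14 (SE; adjusted p = 0.00542 in limma), with -1.13 ± 0.14 for 1443814_x_at (adjusted p = 0.00373 in limma). Both pairs fell in both probe sets. Pth read 1396 and 1588 at 12 h, against 1022 and 807 at 4 h, a rise of 0.84 ± 0.15 (adjusted p = 0.0122 in limma) with both pairs higher. Of the 12 member probe sets 3 passed, 1 higher (4.51% of all probe sets) and 2 lower (5.57%), 10.1% of all probe sets in either direction.

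All 3 calls rest on the value added before taking logs, while the sizes stayed close to these under all alternatives run: -0.99 to -0.90 and -1.21 to -1.02 for Ctsh and 0.67 to 1.002 for Pth. With 1 in place of 16 no probe set passed in Th2 cells at all, and the adjusted p in limma was 0.0722 and 0.0856 for Ctsh and 0.206 for Pth. The call of Pth was also lost without the Th2 DN Trpm4 pair (0.67; adjusted p = 0.0546 in limma). Rnf128 1418318_at differed by -0.46 ± 0.14 (adjusted p = 0.0797 in limma), which passed with 64 added (adjusted p = 0.0196 in limma), and Epas1 1449888_at by 0.40 ± 0.15 (adjusted p = 0.128 in limma). Ecm1 differed by 0.01 ± 0.19 and Nts by 0.17 ± 0.20, with 1 pair up and 1 down in each.

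In Th1 cells the same comparison runs from biased arrays at 4 h to unbiased arrays at 12 h, and 56.1% of all probe sets passed, 27% higher and 29.1% lower. Of the 12 members 4 passed, all lower. Rnf128 1449036_at read 20.3 and 24.3 at 12 h, with vector and DN Trpm4, against 143 and 166 at 4 h, a difference of -2.01 ± 0.16 (SE; adjusted p = 1.65e-05 in limma), and 1418318_at differed by -1.51 ± 0.14 (adjusted p = 3.94e-05 in limma). Epas1 1435436_at read 10.6 and 16.3 at 12 h, against 143 at 4 h with both viruses, a difference of -2.31 ± 0.15 (adjusted p = 6.13e-06 in limma). Gpm6b 1423091_a_at differed by -0.44 ± 0.14 (adjusted p = 0.0296 in limma), a call lost without either Th1 pair (adjusted p = 0.0917 without vector and 0.454 without DN Trpm4, in limma). Epas1 1449888_at, of the same gene as the largest change, differed by 0.11 ± 0.15 in Th1 cells (adjusted p = 0.563 in limma). It read 8.15 and 10.1 at 4 h and 9.79 and 12.1 at 12 h, below the array median, so it could not show a fall. The kind of array and the time cannot be told apart in these values.

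The difference between the cell types' time effects passed for 6 of the 12 members, against 38.2% of all probe sets. Of all probe sets 20.1% were called higher and 18.1% lower, and of the members 4 and 2. The difference was 1.05 ± 0.20 and 1.75 ± 0.22 for Rnf128, 2.37 ± 0.21 for Epas1 1435436_at and 0.68 ± 0.21 for Pth, less negative or more positive in Th2 cells. For Ctsh it was -1.01 ± 0.19 and -0.99 ± 0.20, from a fall in Th2 cells against Th1 signals below the array median. Because it contains the Th1 times it carries the same limit as the Th1 comparison. The Pth call was lost without either Th1 pair or without the Th2 DN Trpm4 pair, that of Ctsh 1418365_at without the Th1 vector pair (adjusted p = 0.0522 in limma) and that of 1443814_x_at without the Th1 DN Trpm4 pair.

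**Figure D3:**
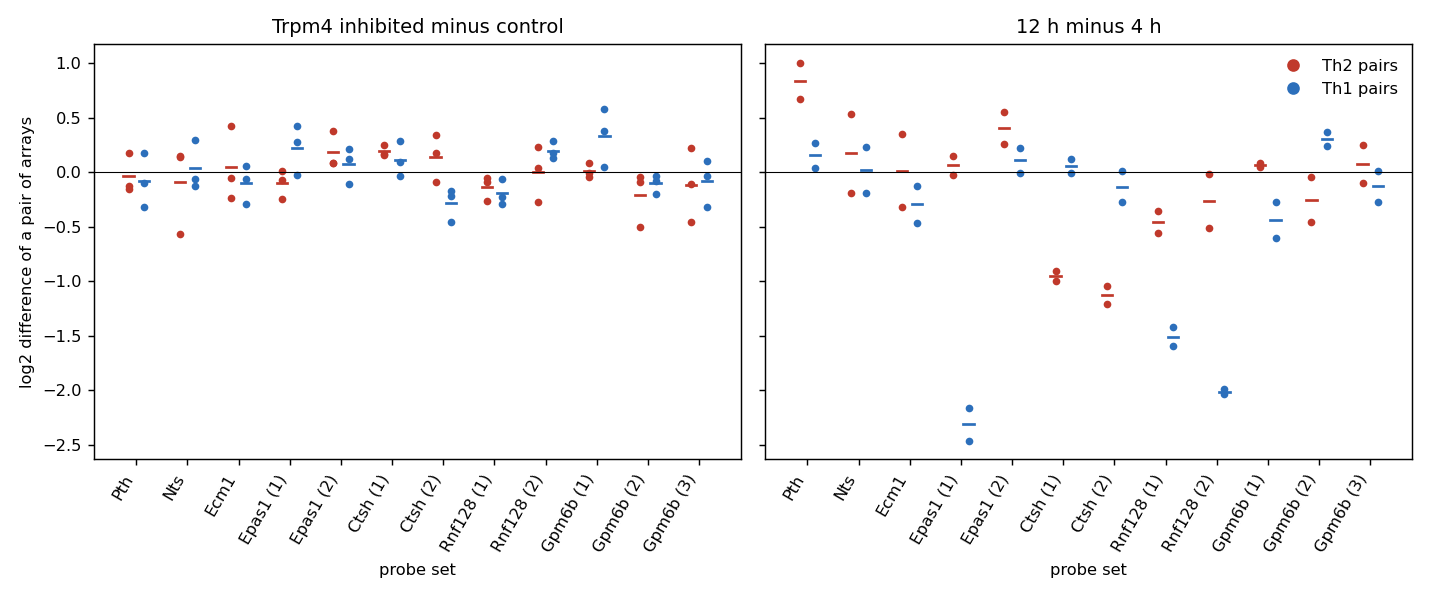
Differences in log2(signal + 16) within single pairs of arrays, Trpm4 inhibited minus control on the left and 12 h minus 4 h on the right, with Th2 pairs in red and Th1 pairs in blue and short bars for the means. Taken over the probe sets, the Trpm4 differences lie on both sides of 0 in both cell types. Single probe sets can lie on 1 side, as Rnf128 1418318_at and Gpm6b 1425942_a_at do below 0 in every pair. In the time panel the Th2 pairs of both Ctsh probe sets lie between -0.91 and -1.21 and the Th2 pairs of Pth at 0.67 and 1.002.

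Inhibition of Trpm4 was tested over 6 pairs, Trpm4 siRNA against Thy1 siRNA and DN Trpm4 against vector at 4 h and 12 h in both cell types. No probe set of any gene passed in limma (0% of 29467), and 1733 had an unadjusted p under 0.05, 1 member among them. The member estimates ran from -0.16 to 0.17 in log2. Rnf128 1418318_at was lower in 6 of 6 pairs, with an estimate of -0.16 ± 0.07 (SE; unadjusted p = 0.0341, adjusted p = 0.817 in limma), but its other probe set stood at 0.10 ± 0.08. Gpm6b 1425942_a_at was also lower in 6 of 6 pairs, at -0.16 ± 0.08 (adjusted p = 0.846 in limma), while its other probe sets stood at 0.17 ± 0.09 and -0.10 ± 0.09. Ctsh 1418365_at stood at 0.15 ± 0.07 (adjusted p = 0.837 in limma) and 1443814_x_at at -0.07 ± 0.10.

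In Th2 cells alone, where the genes are read well, 3 pairs gave estimates from -0.21 to 0.19 and 0 of 12 members passed. Of all probe sets 0% passed and 1824 had an unadjusted p under 0.05. Pth read 1083 with Trpm4 siRNA against 1156 with Thy1 siRNA, 807 with DN Trpm4 against 1022 with vector at 4 h, and 1588 against 1396 at 12 h. It was thus lower in 2 pairs and higher in 1, with an estimate of -0.03 ± 0.12 (SE; adjusted p = 0.975 in limma). Nts read 721 with Trpm4 siRNA against 620 with Thy1 siRNA, 379 against 576 at 4 h and 529 against 447 at 12 h, an estimate of -0.09 ± 0.15. Ecm1 read 6825 against 6941 with siRNA, 2187 against 3099 at 4 h and 2942 against 2101 at 12 h, an estimate of 0.05 ± 0.14. For all 3 secreted proteins the pairs at 4 h and 12 h went opposite ways. In Th1 cells 0 of 12 members passed (0% of all probe sets; 928 unadjusted p under 0.05, 2 members among them), and for the effect in Th2 minus that in Th1 it was again 0 of 12 (0%; 1032 unadjusted, 1 member).

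Genes related to the members by function were read from lists, each with its count and median over the genes that passed the filter, beside -0.01 for the median Th2 minus Th1 difference of all probe sets tested, 6.14% called higher and 3.65% called lower. Of the cathepsins, proteases of several classes listed by that name together with legumain, 5 of 13 were higher in Th2 and 0 lower, with a median of 0.51. Lgmn, legumain, an asparagine-specific endopeptidase of lysosomes, read 59.7, 143 and 485 in Th2 arrays as lowest, median and highest, against 2.78, 8.25 and 11.3 in Th1 arrays. Its arrays did not overlap, and the difference was 2.995 ± 0.34 (SE; adjusted p = 7.25e-04 in limma). Ctsl, cathepsin L, was higher by 2.43 ± 0.30 (adjusted p = 0.00127 in limma) and Ctse, an aspartic protease of endosomes, by 1.28 ± 0.13 (adjusted p = 4.4e-04 in limma), although another Ctse probe set read lower, at -0.63. Ctsb, at 0.84 ± 0.10 with 1 of 5 probe sets of opposite sign (-0.49), and Ctsa, at 0.51 ± 0.14, are named after their values were seen. Without the block of pairs the count was 3.

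Of the cystatins, inhibitors of cysteine proteases such as cathepsin H, 3 of 5 were higher and 0 lower, with a median of 0.90. Cst6 read 70.4 to 140.3 in Th2 arrays, against 16.9 to 36.5 in Th1 arrays, and was higher by 1.41 ± 0.14 (SE; adjusted p = 3.47e-04 in limma). Stfa3, a stefin with near-identical copies that the probes may share, was higher by 3.10 ± 0.40 (adjusted p = 0.00162 in limma), with Th2 and Th1 arrays that overlapped (56.2 to 4650.4 against 18.2 to 263). Cst7 was higher by 0.90 ± 0.21 (adjusted p = 0.0266 in limma). With arrays averaged within their sets the count of cystatins was 1. With time in Th2 cells, 5 of 13 cathepsins were lower at 12 h than at 4 h (5.57% of all probe sets) and 0 higher, with a median of -0.53. They were Lgmn at -1.19 ± 0.19, Ctso at -1.05 ± 0.16, Ctsw at -0.97 ± 0.18, Ctse at -0.89 ± 0.14 and Ctsd at -0.84 ± 0.16, named after their values were seen. These calls too are lost when 1 is added in place of 16.

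Around Epas1, 3 of 10 HIF factors and regulators were higher in Th2 and 0 lower, with a median of 0.37: Arnt2, a partner of HIF proteins, by 1.51 ± 0.34 (SE; adjusted p = 0.0228 in limma), Egln3, a prolyl hydroxylase that marks HIF proteins for breakdown, by 0.999 ± 0.25 (adjusted p = 0.0347 in limma) and Arnt by 0.42 ± 0.12 (adjusted p = 0.049 in limma), with 2 of 4 Arnt probe sets of opposite sign. These 3 calls were close to the threshold: when any 1 of the 7 pairs was left out, 0 or 1 remained in number, and without the 12 h pairs 0. Hif1a differed by 0.39 ± 0.13 (adjusted p = 0.0842 in limma). Of 13 HIF target genes 0 were higher and 1 lower, P4ha1, a collagen prolyl hydroxylase, at -0.73 ± 0.13 (adjusted p = 0.00779 in limma), with a list median of -0.11.

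Of the prohormone processing genes, which serve hormones such as Pth and Nts, 1 of 9 was higher and 1 lower. Cpe, carboxypeptidase E, which trims peptide hormones in secretory granules, read 15.99, 109 and 169 in Th2 arrays, against 1.77, 8.44 and 36.1 in Th1 arrays, a difference of 1.44 ± 0.24 (SE; adjusted p = 0.0069 in limma). Cpd, a related enzyme of the trans-Golgi network, was lower, at -0.80 ± 0.12 (adjusted p = 0.00348 in limma). Of the Pth list 0 of 2 genes tested passed, Pth2, a related peptide, and Casr, the calcium sensor, while Pth1r, the receptor of parathyroid hormone, stayed below the median of every array and was not tested. Of the neurotensin list 0 of 2 passed, Ntsr2 and the neuromedin U receptor Nmur1. Among partners of Ecm1 0 of 8 passed: Il2rb, the interleukin 2 receptor chain, differed by -0.83 ± 0.27 (adjusted p = 0.0824 in limma) and S1pr1, the receptor that guides exit from lymph nodes, by -1.11 ± 0.43 (adjusted p = 0.133 in limma).

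Beside Rnf128, 1 of 17 anergy genes and ubiquitin ligases was higher and 0 lower, with a median of 0.13. It was Ikzf1, at 0.52 ± 0.14 (SE; adjusted p = 0.0478 in limma), named after its value was seen, while Egr2 differed by 1.02 ± 0.36 (adjusted p = 0.107 in limma) and Cblb by -0.81 ± 0.36 (adjusted p = 0.18 in limma). Of the RING ligases of the same family 1 of 7 was higher, Rnf215, by 1.01 ± 0.19 (adjusted p = 0.0102 in limma). Of the proteolipid relatives of Gpm6b 1 of 3 was higher, Plp2, by 0.48 ± 0.11 (adjusted p = 0.0277 in limma), and Gpm6a stayed below the median of every array. Under Trpm4 inhibition 0 genes of these lists passed, over both cell types or in Th2 alone.

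**Figure D4:**
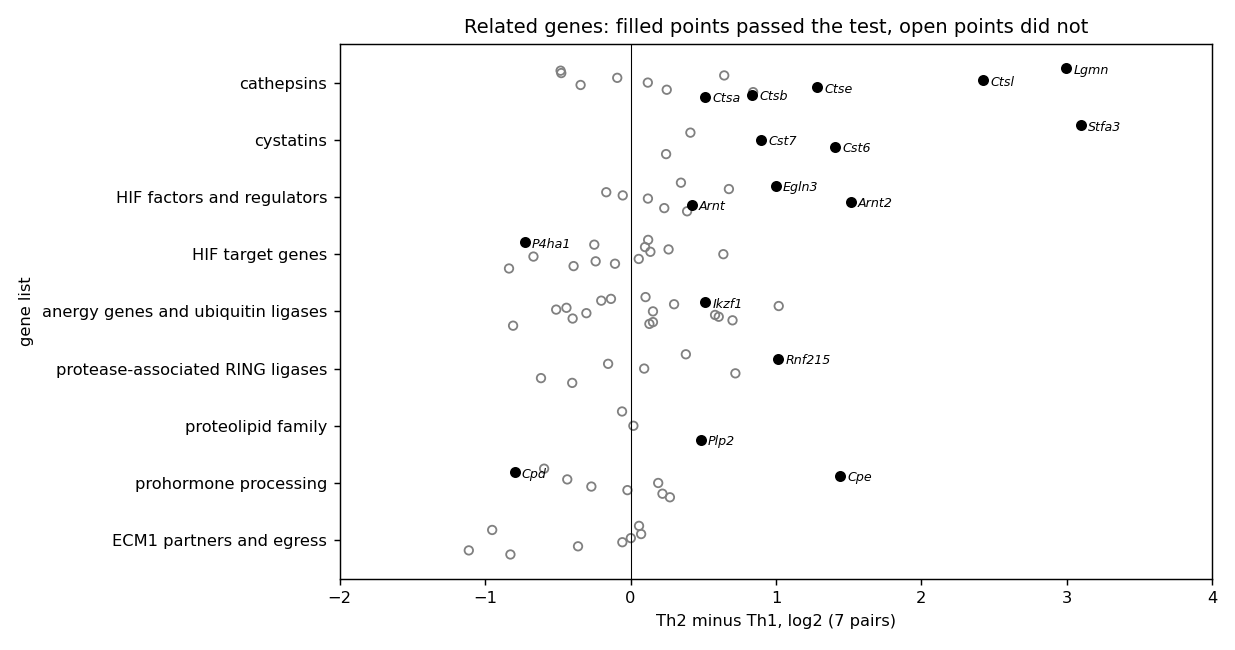
Th2 minus Th1 difference in log2(signal + 16), over 7 pairs, of the genes tested in 9 lists related to the members, with filled, named points for those that passed the limma test and open points for the rest. The filled points of the cathepsins and the cystatins lie above 0, with Lgmn at 2.995 and Stfa3 at 3.10, and the HIF targets scatter around 0 with P4ha1 at -0.73.

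Genes with the profile most like each member were taken by Pearson r over the 14 arrays. Because the arrays are of 2 cell types, these values mostly rank how well a gene separates Th2 from Th1, and they are given without a test. Pth and Epas1 both had Maf, a Th2 transcription factor, among their 3 nearest (r = 0.99 for each, by different Maf probe sets). Pth and Nts both had Cyp11a1, which starts steroid synthesis (r = 0.982 and 0.997), and Nts had Gata3 too (r = 0.99). Ecm1 lay nearest to Efna5, Epas1 to Skap1, Ctsh to Sgce, Rnf128 to Tiam1 and Gpm6b to Ptgir, with r of 0.98 to 0.99. Cst6, a cystatin, was the 3rd nearest to Ctsh (r = 0.98). Over the 7 Th2 arrays alone the members were not alike: Ecm1 and Gpm6b 1423091_a_at correlated at 0.84, Epas1 1435436_at and that Gpm6b probe set at -0.96, and Pth and Nts at -0.21. The other Epas1 probe set runs opposite to 1435436_at, so the second value does not hold for the gene. Arrays of the biased and unbiased kinds are mixed in these 7.

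Markers of other cells that express some of these genes were read in both cell types. Of the macrophage and dendritic cell markers, known for high cathepsin levels, 0 of 9 passed, and C1qa and C1qb stayed below the median of every array. Adgre1 lay above it on all 14 arrays, and Csf1r and Itgax on all 7 Th2 arrays and on 5 and 3 Th1 arrays. Itgam was higher in Th2 in 7 of 7 pairs, by 0.35 ± 0.11 (SE; adjusted p = 0.0828 in limma). The summed normalised signal of the list was 266 to 587 in Th2 arrays and 201 to 506 in Th1 arrays. Of the endothelial markers, cells known for Epas1, 0 of 3 passed and 5 of 8, Cdh5 and Tek among them, stayed below the median of every array, with sums of 132 to 468 in Th2 and 128 to 249 in Th1 arrays. Of the mast cell and basophil markers 0 of 4 passed, Kit and Ms4a2 stayed below the median throughout, and Cpa3 lay above it on all 14 arrays and differed by 0.60 ± 0.19 (SE; adjusted p = 0.0728 in limma), higher in Th2 in 7 of 7 pairs. The sums were 134 to 413 in Th2 and 133 to 241 in Th1 arrays. Of the neural markers, cells known for Gpm6b and Nts, 1 of 6 was higher in Th2, Stmn2 by 1.05 ± 0.20 (SE; adjusted p = 0.0123 in limma), Tubb3 and Mog stayed below the median, Mbp lay above it on all 14 arrays, with a median signal of 378 in Th2 and 287 in Th1 arrays, and the sums were 497 to 991 in Th2 and 409 to 1716 in Th1 arrays. Of the fibroblast markers 1 of 6 was higher, Pdgfrb by 1.76 ± 0.38 (adjusted p = 0.019 in limma), Col1a1 stayed below the median, Lum had a median signal of 15.3 in Th2 and 226 in Th1 arrays, and the sums were 173 to 264 in Th2 and 147 to 463 in Th1 arrays. Of 6 B cell markers 0 passed. Of 10 T cell markers Zap70 was higher and Cd5 lower. The part of other cells in the members' levels was not tested.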

How the data were processed

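Per the labels' protocols, Trizol-extracted RNA of mouse T cells was biotin-labelled by a standard Affymetrix method, 1 array for each of 14 samples. The deposited values are probe set signals, an intensity on a linear scale, with the authors' probe summary and scaling not given in the sources used here. Of the 45101 probe sets 34958 name 1 gene, 932 name several and 9211 name no gene, and 64 controls were left out of the tests. Total signal per array was 7324677.5 to 10608719, and precision is limited by how many arrays there are.

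After quantile normalisation over all arrays, 16 was added before log2, and probe sets above the array median (25.9) in at least 2 arrays were kept (29467). The added 16 compresses differences of low signals. Linear models came from limma 3.58.1 (lmFit, eBayes; R 4.3.3), and matched arrays formed a fixed block. In these two-sided tests the Benjamini-Hochberg adjusted p over all probe sets had to be under 0.05. Residual degrees of freedom were 6 for Th2 minus Th1, 5 or 4 for Trpm4 and 2 for time. The fit was tested on simulated data.

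The members and gene lists were chosen with earlier results of these data known. A list was read by 1 probe set a gene, that of highest mean, and up to 4 genes with the largest Th2 minus Th1 difference could be named, and per member the 3 genes of highest r. Alternatives were no normalisation, median scaling, 1 or 64 added, 2 other filters, a trended eBayes, no block, arrays averaged within a set, no 12 h pairs, and each pair left out. RefSeq start regions were of GRCm38.p6.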

Additional observations from a re-analysis of the deposited data

Results flagged for a closer look

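The 12 h minus 4 h effect differed between Th2 and Th1 cells for 6 member probe sets, by limma's test of the difference. The differences were 1.05 for Rnf128 1418318_at and 1.75 for 1449036_at, 2.37 for Epas1 1435436_at, 0.68 for Pth, -1.01 for Ctsh 1418365_at and -0.99 for 1443814_x_at. The 3′ bias of the Th1 arrays changes between 4 h and 12 h, so time and kind of array cannot be told apart in them, and 38.2% of all probe sets passed. The Th1 signals of Pth and Ctsh in this comparison were all below the array median. The Pth value ran from 0.15 to 0.85 over the alternatives, with an adjusted p in limma of up to 0.822.

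The siRNA arrays lay on opposite sides of the untreated array in Th2 and Th1 cells for 4 member probe sets. The Th2 minus Th1 contrast of that effect was -1.66 for Pth, 1.49 for Epas1 1449888_at, 0.75 for Ctsh 1443814_x_at and 0.49 for Gpm6b 1453514_at. Both siRNA arrays of a cell type share 1 untreated array, and these differences were not tested. For Ctsh 1443814_x_at and Gpm6b 1453514_at all 7 Th1 arrays lay below the median, so the order of their Th1 signals cannot be read. Pth and Epas1 1449888_at each had 1 of 7 Th1 arrays above the median, so their Th1 side also rests on low signals.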

How the results depend on the processing

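No single member effect that was followed reversed under the alternatives run. Estimates under 1.5 standard errors were not followed, and their sign can rest on 1 pair. Ecm1 at 12 h minus 4 h in Th2 cells was -0.32 in the vector pair and 0.35 in the DN Trpm4 pair. Of the single member effects followed (those over 1.5 standard errors), all 224 Trpm4 values kept their side of the threshold. Of 252 time values 227 did, 17 lost the call and 8 gained it, and of 204 Th2 minus Th1 values 17 moved by over 1 SD, all with 1 or 64 added. The count for 12 h minus 4 h in Th2 (2970) was 0 with 1 added and 1846 to 4042 with a pair left out, lowest without either Th1 pair. The 3 members called there became 0 with 1 added and 5 with 64 added. With a pair left out, the count for that effect in Th1 (16537) was 9919 to 18942 and for the difference (11253) 5845 to 12630, lowest without Th1 DN Trpm4. The Pth difference between cell types lost its call with signals as deposited, with median scaling, with 1 added, with no filter and with 3 of 4 pairs left out singly (adjusted p in limma 0.00460 to 0.822 over all alternatives), those of Ctsh without 1 Th1 pair each, and that of 1443814_x_at with 1 added too. The count for Th2 minus Th1 (2884) was 837 with no pair block, 271 with arrays averaged within a set, 1256 without the 12 h pairs and 1450 to 2901 with a pair left out, over 1.5 times below the full count without vector or DN Trpm4 at 12 h, DN Trpm4 at 4 h or either siRNA pair. Higher cathepsins (5) were 3 with no pair block and 3 with averaging, and higher cystatins (3) were 1 with averaging. Higher HIF factors (3) were 1 with median scaling and with 1 added, 0 with no pair block, with averaging and without the 12 h pairs, and 0 to 1 with a pair left out. Lower HIF targets (1) were 2 with 1 added, 0 with no pair block and with averaging, and 1 to 3 with a pair left out. The causes were not tested. Signals near the floor limit what Th1 values can show.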

Other observations

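In Th2 cells Stfa3, a protease inhibitor of the cystatin list, was higher at 12 h than at 4 h by 1.19 ± 0.18 (SE; adjusted p = 0.00619 in limma), while Dgka, a diacylglycerol kinase of the anergy list, was lower, at -1.40 ± 0.14 (adjusted p = 0.00164 in limma) and Egr3, an activation-induced factor of that list, at -1.40 ± 0.16 (adjusted p = 0.00272 in limma). Of the HIF list Arnt2 was higher by 1.05 ± 0.16 (adjusted p = 0.00692 in limma) and Egln3 lower, at -1.003 ± 0.14 (adjusted p = 0.00535 in limma). These genes were picked after their values were seen, and with 1 added in place of 16 no probe set passed in this comparison.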
